A study of Homo sapiens with 31 samples.

Results

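In the C13* and A2780 ovarian cancer lines, 4157 of 19221 genes split the 31 libraries the same way: every one of the 15 libraries of A2780 OlaR and C13* shCON lay above, or every one lay below, every one of the 16 libraries of A2780 and C13* shCEBPB. This was 21.6% of the genes used. Of these genes, 2324 were higher in A2780 OlaR and C13* shCON (higher members, 12.1% of the genes used) and 1833 were lower (lower members, 9.54%). The measured values themselves chose the members, so the split is given as a description with no test. A2780 is an established line. A2780 OlaR came out of A2780 cultures kept under increasing olaparib, an inhibitor of poly(ADP-ribose) polymerase, over several months. C13* is a cisplatin-resistant line that carried a control shRNA (shCON) or an shRNA against CEBPB, the gene of the transcription factor C/EBPβ (shCEBPB). The groups had 8 libraries of A2780, 8 of A2780 OlaR, 7 of C13* shCON and 8 of C13* shCEBPB. mRNA was sequenced, and the deposited values are FPKM, a measure of fragments per gene that takes gene length and library size into account. The A2780 groups thus differ by selection with a drug and the C13* groups by an shRNA, so the 2 comparisons joined here differ in line and in agent. The study cites a report that A2780 is unlikely to be a line of high-grade serous cancer, and questions the use of C13* because of where that line came from.

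Epithelial cells are held together by cadherins, desmosomes and tight junctions, and carry filaments of keratin. Basal cells of stratified epithelia use p63 as their master regulator and KRT5 and KRT14 as their keratin pair. Mesenchymal cells carry vimentin filaments instead, secrete collagens and express ZEB factors, which repress E-cadherin. Cells can move from one state towards the other, and such shifts have been studied in drug-resistant carcinoma cells. Homologous recombination, the repair pathway whose loss makes cells sensitive to olaparib, works through BRCA1 and the Fanconi anaemia proteins.

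Library labels and library values did not group in the same way. Over 11721 expressed genes (1 FPKM or more in at least 15 libraries), libraries of A2780 OlaR and C13* shCON had a median Pearson's r of 0.986 across genes on log2(FPKM + 1), with a lowest pair of 0.975. The median r was 0.689 between A2780 OlaR and its parent A2780, 0.769 between C13* shCON and C13* shCEBPB, and 0.748 between A2780 and C13* shCEBPB. Within groups it lay between 0.992 and 0.997. A split by the labelled line, A2780 against C13*, separated 294 genes (1.53% of those used), or 2.32% of the expressed genes, against 4157 for the split described here. Whether the drug, the shRNA or another difference between the cultures set this similarity cannot be told apart with these libraries. A mix-up of cultures or of labels was not tested and cannot be told apart from these either, so the A2780 line and the C13* line stand below for what the labels say. In 1 label field the first C13* shCON library is given as A2780. Without it there were 2334 higher and 1841 lower members. Libraries 1 to 3 stood apart from libraries 4 to 8 in A2780 OlaR (median r 0.987 between the ranges and 0.997 within them) and in C13* shCEBPB (0.986 and 0.997). Libraries 1 to 3 alone gave 3184 higher and 2669 lower genes, and libraries 4 to 8 alone 2701 and 2191. FPKM carry no read totals, so absolute depth is unknown, and relative depth, read from the steps of low values, ran from 0.865 to 1.21. The study states biological replicates, and nothing says how the cultures were kept apart, so p-values measure the spread between these libraries, which may be technical in part. Fewer cells of a type and less RNA per cell cannot be told apart in bulk samples.

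The distance of a member from the boundary is given as its gap, the difference on the log2(FPKM + 1) scale between the nearest libraries of the 2 sides. The median gap was 0.38 in higher and 0.33 in lower members. It reached 1 in 534 higher members (23%) and 326 lower members (17.8%), and 3 in 110 and 35. A gap under 0.1 was found in 438 higher and 379 lower members, so many genes stood close to the boundary. Nearest to it inside were OXR1 and UBN1 among higher members and SNAPC5, ABCB9 and NDUFA5 among lower members. Just outside were CNOT8, ERI2 and AGPAT5, and GSK3A, ZDHHC24 and DOCK3. OXR1, for example, ran from 13 to 17.9 FPKM in A2780 OlaR and C13* shCON and from 9.2 to 13 in the other libraries. CNOT8, outside, ran from 42.9 to 52 and from 28.9 to 42.9.

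The members were a share of broader changes within each line. A2780 OlaR lay wholly above A2780 in 4702 genes (24.5% of the genes used) and wholly below in 5946 (30.9%). C13* shCON lay wholly above C13* shCEBPB in 5390 (28%) and below in 3999 (20.8%). These 2 comparisons share no library. In 6880 genes (35.8% of the genes used) both lines were separated. Of these, 2625 (13.7% of the genes used) were higher in A2780 OlaR and in C13* shCON and 2083 (10.8%) were lower in both. The other 2172 went in opposite directions, which was 31.6% of the 6880 and 11.3% of the genes used. Of the genes with the same direction in both lines, 551 were no members, since a library of one line overlapped with the other line. The median difference of higher members was 1.04 in the A2780 line and 1.07 in the C13* line, on the scale of mean log2(FPKM + 1). For lower members it was -1.11 and -0.94. Over all expressed genes these medians were -0.05 and 0.09. The difference was larger in the A2780 line than in the C13* line for 1143 higher and 1041 lower members.

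**Figure D1:**
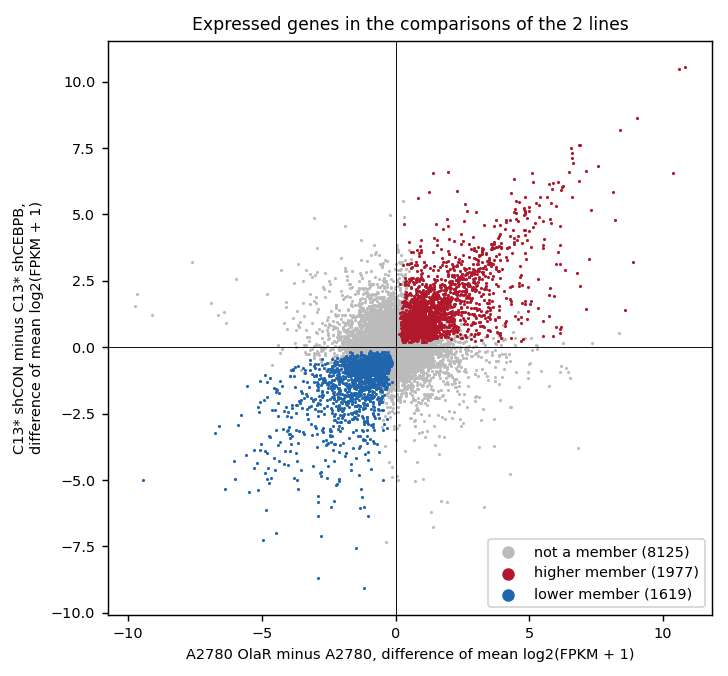
Each point is an expressed gene (11721), with the difference of mean log2(FPKM + 1) between A2780 OlaR and A2780 on the horizontal axis and between C13* shCON and C13* shCEBPB on the vertical axis. The 1977 expressed higher members (red) lie in the upper right, the 1619 lower members (blue) in the lower left, and 8125 other genes (grey) are found around the origin and in every direction.

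CEBPB, the gene whose shRNA defines C13* shCEBPB, was not a member. It lies on chromosome 20 of hg38 from 50190830 to 50192668, is a gene of 1 exon, and shares 231 bp with the antisense gene CEBPB-AS1. Where 3 FPKM of a group follow each other here and below, they are its lowest, median and highest library. CEBPB was at 97.1, 113 and 127 FPKM in A2780 OlaR, 75.2, 85.4 and 101 in C13* shCON, 85.6, 99.7 and 111 in A2780 and 30.2, 49.5 and 58.7 in C13* shCEBPB. The shCEBPB libraries were below all others, which is the direction of their label, while those of the other groups overlapped. Since C13* shCON lay above C13* shCEBPB in 5390 genes, this alone does not verify the label. BRCA1, a core protein of homologous recombination, was a higher member at 31.2, 33.1 and 41.6 in A2780 OlaR and 25.6, 29.1 and 31.9 in C13* shCON, against 9.23, 9.93 and 11.4 in A2780 and 13, 15.2 and 19.8 in C13* shCEBPB. BRCA1 also differed within each side: A2780 OlaR was above C13* shCON on average (log2 difference 0.29, SE 0.07, limma adjusted p = 0.00466), and A2780 was below C13* shCEBPB (-0.58, SE 0.08, adjusted p = 8.32e-07). A2780 OlaR was at 39.9 to 41.6 in libraries 1 to 3 and at 31.2 to 33.4 in libraries 4 to 8, and the latter overlapped with C13* shCON. BRIP1, the helicase that binds BRCA1, was at 5.25, 6.05 and 7.83, 5.38, 6.31 and 7.38, 3.86, 4.45 and 5.28 and 3.67, 4.46 and 5.84 in the 4 groups in the same order. MCPH1, a DNA damage response protein, was at 4.48, 5.49 and 7.08, 5.4, 6.21 and 6.99, 3.44, 4.35 and 5.02 and 4.33, 4.77 and 6.41. The sides overlapped in BRIP1 and in MCPH1, so neither was a member.

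**Figure D2:**
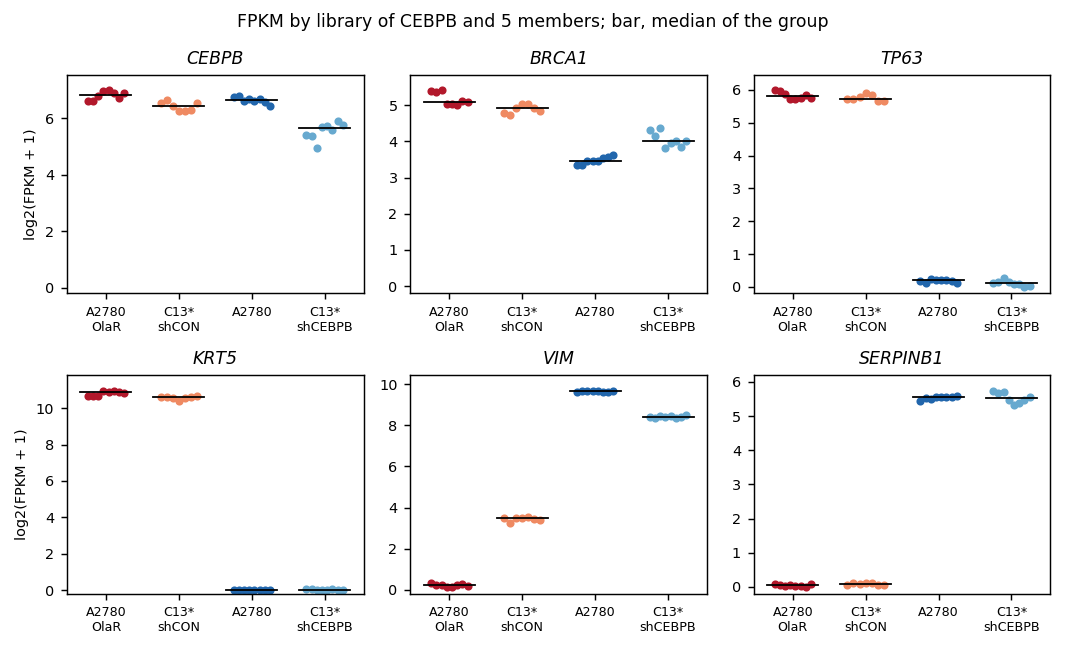
Each point is a library (8, 7, 8 and 8 per group), with log2(FPKM + 1) on the vertical axis, for CEBPB and 5 members, and the bar is the median of the group. CEBPB is low only in C13* shCEBPB, BRCA1, TP63 and KRT5 are higher in every library of A2780 OlaR and C13* shCON, and VIM and SERPINB1 are lower.

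The widest gaps among higher members were those of the keratin genes KRT5 and KRT19. KRT5, a keratin of basal cells with a gap of 10.36, lies on chromosome 12 from 52514575 to 52520530 and has 9 merged exons. Its FPKM was 1619, 1870.1 and 1991 in A2780 OlaR and 1368, 1573 and 1633 in C13* shCON, was listed at 0 in every A2780 library, and was 0, 0.00988 and 0.0416 in C13* shCEBPB. KRT19, a keratin of simple epithelium, was at 1592, 1876 and 2035 and 1381, 1442 and 1593, against 0.0403, 0.139 and 0.481 in A2780 and 0, 0.0165 and 0.0976 in C13* shCEBPB. The libraries of the low side stood near 0 for both keratins. Keratins are a family of similar genes, so that reads may have been split between them. ZBTB7C, which encodes a zinc finger protein, was at 479, 519 and 555 and 461, 501 and 530.1, against 0, 0 and 0.0112 and 0.152, 0.236 and 0.386. SYT8, a synaptotagmin, was at 289, 342 and 397 and 251, 287 and 330.5, against 0, 0.0141 and 0.0618 and 0, 0 and 0.0165. Among ZBTB7C, SYT8 and KRT5 the highest library of the low side was 1 of ZBTB7C, at 0.386. The cytokine genes IL1A and IL1B, which are neighbours on chromosome 2, were both higher in C13* shCON than in A2780 OlaR. IL1B was at 108, 114 and 126 in A2780 OlaR and 183, 205 and 221 in C13* shCON, against 0, 0.00932 and 0.0394 and 0, 0 and 0.0757. IL1A was at 106, 114 and 147 and 189, 212 and 241, against 0, 0.0324 and 0.0571 and 0, 0.0566 and 0.149. Also among the 10 widest were the P-cadherin gene CDH3, the transcytosis gene MAL2 and the hyaluronan synthase gene HAS3, with gaps from 6.35 to 6.39.

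Lower members had narrower gaps, of at most 5.23. SERPINB1, an inhibitor of neutrophil proteases, lies on chromosome 6 from 2832332 to 2841959 with 8 merged exons. It was at 0, 0.0323 and 0.0638 FPKM in A2780 OlaR and 0.0329, 0.05 and 0.0769 in C13* shCON, against 42.6, 45.8 and 46.9 in A2780 and 39.5, 45 and 52.7 in C13* shCEBPB. VIM, the vimentin gene on chromosome 10 from 17228241 to 17237593, was at 0.0857, 0.159 and 0.265 in A2780 OlaR and 8.49, 10.1 and 10.5 in C13* shCON, against 784, 808 and 827 in A2780 and 328, 342 and 359.7 in C13* shCEBPB. The 4 groups of VIM did not overlap with one another. VIM shares 656 bp of its exons with antisense genes. FKBP10, a folding enzyme for collagen, was at 1.12, 1.72 and 2.29 and 1.28, 1.87 and 1.97, against 194, 227 and 241 and 88.5, 117 and 126. PRAME, a cancer-testis antigen, was listed at 0 in every A2780 OlaR library and was 0.11, 0.192 and 0.373 in C13* shCON, 62.2, 64.4 and 65.5 in A2780 and 33.6, 36.5 and 38.7 in C13* shCEBPB. EEF1A2, a translation elongation factor, was at 3.34, 4.11 and 5.37 and 1.56, 2.35 and 2.77, against 142, 164 and 196 and 366, 541 and 601. The next 5 were QPRT (NAD synthesis), ECI2 (fatty acid oxidation), BAG2 (a co-chaperone), UCP2 (a mitochondrial carrier) and SAMD11, with gaps from 4.25 to 4.43. ECI2 shares 1242 bp and BAG2 2842 bp of exons with genes on the other strand, and the sources used here do not say whether counting used the strand.

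**Figure D3:**
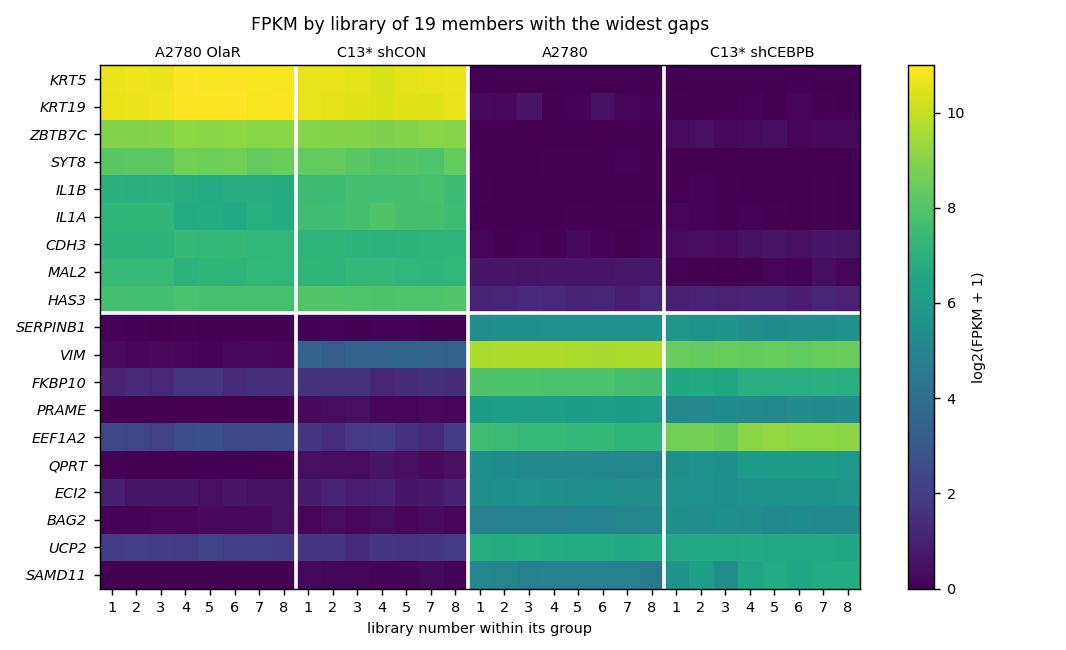
Each row is 1 of 9 higher (above the white line) or 10 lower members from the widest gaps, each column is a library, and colour is log2(FPKM + 1). The change of colour falls between the 15 libraries at the left and the 16 at the right in all 19 rows, and VIM is also darker in A2780 OlaR than in C13* shCON.

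Promoters of 2 higher and 2 lower members are shown for their content of CG pairs, which is described next for all members. They are those of widest gap among the members with exactly 1 window in the RefSeq promoter table used here. Each runs from 250 bases before to 50 after the start that RefSeq gives, 5′ to 3′ on the strand of the gene, with CG pairs in capitals. KRT5 (GRCh38.p14, chr12:52520345-52520644, minus strand) has 7 CG pairs in 300 bases and IL1B (chr2:112836730-112837029, minus strand) has 2. SERPINB1 (chr6:2841814-2842113, minus strand) has 27 and VIM (chr10:17227991-17228290, plus strand) has 10.
KRT5: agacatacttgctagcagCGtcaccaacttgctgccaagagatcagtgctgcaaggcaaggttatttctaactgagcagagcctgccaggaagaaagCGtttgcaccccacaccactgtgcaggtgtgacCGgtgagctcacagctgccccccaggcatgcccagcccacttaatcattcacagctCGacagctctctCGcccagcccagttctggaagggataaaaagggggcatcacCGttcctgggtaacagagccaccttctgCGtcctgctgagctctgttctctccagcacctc
IL1B: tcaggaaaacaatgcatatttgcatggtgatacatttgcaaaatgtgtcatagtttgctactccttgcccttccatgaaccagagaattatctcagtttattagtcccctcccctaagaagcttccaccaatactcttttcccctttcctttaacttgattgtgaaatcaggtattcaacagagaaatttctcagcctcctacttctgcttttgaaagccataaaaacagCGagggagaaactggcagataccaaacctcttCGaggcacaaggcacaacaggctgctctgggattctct
SERPINB1: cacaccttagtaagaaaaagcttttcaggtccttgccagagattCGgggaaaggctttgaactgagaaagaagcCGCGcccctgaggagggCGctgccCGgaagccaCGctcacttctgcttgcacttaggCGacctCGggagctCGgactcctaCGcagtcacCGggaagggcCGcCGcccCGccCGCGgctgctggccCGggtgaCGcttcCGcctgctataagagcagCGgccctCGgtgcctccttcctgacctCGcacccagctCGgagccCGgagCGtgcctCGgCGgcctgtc
VIM: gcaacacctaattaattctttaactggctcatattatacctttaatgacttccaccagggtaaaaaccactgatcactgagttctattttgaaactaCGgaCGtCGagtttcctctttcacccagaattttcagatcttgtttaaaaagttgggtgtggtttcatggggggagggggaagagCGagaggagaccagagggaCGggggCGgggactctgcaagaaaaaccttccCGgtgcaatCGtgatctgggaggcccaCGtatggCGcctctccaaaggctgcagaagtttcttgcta

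Over 300-base windows at the start of the MANE Select transcripts of GENCODE 44, which 95.4% of expressed genes had, CG pairs were rated as observed over expected from the base content. A ratio under 0.5 was found in 8.24% of the windows of expressed genes, 15.3% of those of expressed higher members and 8.46% of those of expressed lower members. In members with a gap of at least 1 the shares were 29.6% for higher and 13.4% for lower members. Over all 19015 promoters of the annotation the share was 27.4%. The ratio was 0.301 for KRT5, 0.155 for IL1B, 0.839 for SERPINB1 and 0.584 for VIM in the windows printed above. The letters CACCTG, an E-box that ZEB and SNAIL factors bind, were searched on both strands and stood in 32.1% of the promoters of higher members with a gap of at least 1, in 14.1% of those of such lower members, and in 18.4% of those of expressed genes. The share over all promoters was 20.2%. The AP-1 letters TGANTCA stood in 8.51%, 4.79% and 3.92% in the same order, and in 5.43% of all promoters. The letters TTGCNNAA, which C/EBP factors can bind and which contain the palindrome TTGCGCAA, stood in 9.09%, 4.47% and 6.14%, and in 8.08% of all promoters. TGACNNNGC, the core of the antioxidant response element, stood in 13.7%, 13.1% and 15.2%, and in 14.1% of all promoters. The letters CCAAT stood in 30.6%, 27.5% and 36.3%, and in 36% of all promoters. For both, wide-gap members were below expressed genes. A match of letters describes a window and shows no binding.

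Genes of basal and squamous epithelium were the list with the highest share of higher members. Of 30 measured, 25 were higher members (83.3%) and none was a lower member, where 16.9% of all expressed genes were higher members. The gene lists were chosen with earlier results of these data known, so the shares here and in the lists below are descriptions only. Their median difference was 4.38 in the A2780 line and 3.46 in the C13* line. Among the members were the keratins KRT5, KRT6A, KRT6B, KRT14, KRT15, KRT16 and KRT17, the desmosome genes DSC2, DSC3, DSG2, DSG3 and PKP1, and the genes COL17A1, ITGA6, ITGB4, LAMA3 and LAMB3 of hemidesmosomes and their laminin, besides BNC1, CALML3, FAT2, S100A2, SFN and TP63. TP63, the gene of p63, was at 51.4, 55 and 62.6 FPKM in A2780 OlaR and 49.3, 52 and 58.9 in C13* shCON, against 0.0767, 0.146 and 0.174 in A2780 and 0, 0.0738 and 0.198 in C13* shCEBPB. No TP63 library of the low side was above 0.198 FPKM. The summed FPKM of the list ran from 4312 to 5533 in A2780 OlaR and from 4511 to 5475 in C13* shCON, against 223 to 231 in A2780 and 750.1 to 1156 in C13* shCEBPB. KRT17 was at 135, 262 and 353 in C13* shCEBPB and at 0.103, 0.2 and 0.262 in A2780. No C13* shCEBPB library was near that median: libraries 1 to 4 were at 135 to 183 and libraries 5 to 8 at 342 to 353. The 5 that were not members were DSP, JUP, PERP, PKP3 and TRIM29.

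Adhesion and junction genes of simple epithelium also held many higher members. Of 29 measured, 21 were higher members (72.4%), 1 was lower and 7 were neither, where 16.9% of all expressed genes were higher and 13.8% lower members. The median difference of the list was 3.29 in the A2780 line and 2.79 in the C13* line. Higher members included the cadherins CDH1 and CDH3, the claudins CLDN3, CLDN4 and CLDN7, EPCAM, the protease genes PRSS8 and ST14 with their inhibitors SPINT1 and SPINT2, and AP1M2, CDS1, CRB3, EPN3, F11R, KRT19, LSR, MAL2, MARVELD2 and RAB25. CDH3 was at 136, 149 and 162 in A2780 OlaR and 133, 139.7 and 146 in C13* shCON, against 0.0262, 0.0687 and 0.219 and 0.261, 0.391 and 0.596. MAL2 was at 137, 152 and 173 and 145, 149.8 and 161, against 0.502, 0.597 and 0.669 and 0, 0.0768 and 0.328. MUC1, a mucin of the apical surface, was the lower member of the list. It was at 1.56, 1.81 and 2.98 and 1.55, 1.99 and 2.54, against 9.66, 12.4 and 15 in A2780 and 79, 90 and 109.8 in C13* shCEBPB. KRT7, KRT8, KRT18, CGN, CLDN1, OCLN and TJP3 were not members.

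Regulators of epithelial transcription and splicing were higher members in 14 of 18 (77.8%), with no lower member. Among all expressed genes 16.9% were higher and 13.8% lower members. They included EHF, ELF3, ESRP1, FOXA1, GRHL1, GRHL2, GRHL3, KLF5, OVOL1, OVOL2, TFAP2C, TP63 and ZNF750, and the last, like TP63, is a regulator of epidermal cells. TP63 stands in this list and in the basal list. EHF, an ETS factor of epithelia, was at 23.8, 26.4 and 31.6 in A2780 OlaR and 35.6, 38.2 and 40.7 in C13* shCON, against 0, 0 and 0.0218 and 0, 0.00918 and 0.0314. For EHF, C13* shCON lay above A2780 OlaR in every library.

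By share of members, mesenchymal genes did not mirror the epithelial ones as a list. Of 28 measured, 15 were expressed by the rule of 15 libraries, against 29 of 30 in the basal list and 29 of 29 in the list of simple epithelium. A gene can pass that rule through 1 side alone, so these counts depend on the side. In A2780 and C13* shCEBPB, 18 and 17 mesenchymal genes had a mean of at least 1 FPKM, against 13 and 14 basal genes. In A2780 OlaR and C13* shCON, 10 and 11 mesenchymal genes did, against 29 and 29 basal genes. Lower members were 7 of the 28 (25%), 3 were higher and 18 were neither. The share of lower members was 13.8% among all expressed genes and 9.54% among all genes used. The median difference was -1.69 in the A2780 line and -0.01 in the C13* line. The lower members were VIM, ZEB1, S100A4 and the collagen genes COL1A1, COL5A1, COL6A1 and COL6A2. COL6A1 was at 0.0182, 0.0561 and 0.169 in A2780 OlaR and 0.0623, 0.128 and 0.176 in C13* shCON, against 19.5, 23.7 and 27.3 and 18.6, 29.3 and 35.2. S100A4, a calcium-binding protein, was at 3.66, 4.62 and 5.58 and 2.82, 3.74 and 6.25, against 111, 124 and 128 in A2780 and 512, 623 and 793 in C13* shCEBPB. A2780 and C13* shCEBPB overlapped in COL6A1 and stood apart in S100A4. The higher members were SNAI2, TWIST2 and CDH11. TWIST2 had a gap of only 0.007, and CDH11 was at most 0.404 FPKM in any library, so only SNAI2 stood clearly apart at an expressed level. SNAI2, a repressor of E-cadherin, was at 11.5, 13.4 and 15.8 and 14, 15.8 and 17.6, against 0.23, 0.597 and 0.793 in A2780 and 4.31, 5.7 and 6.22 in C13* shCEBPB, in the direction opposite to VIM. The summed FPKM of the list ran from 84.6 to 92.0 in A2780 OlaR, 89.4 to 98.7 in C13* shCON, 1870.1 to 2033 in A2780 and 1114 to 1335 in C13* shCEBPB.

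Targets of NRF2, the transcription factor of the oxidative stress response, held 20 higher members among 36 (55.6%), 1 lower member and 15 that were neither, where 16.9% of all expressed genes were higher and 13.8% lower members. Their median difference was 1.21 in the A2780 line and 0.71 in the C13* line. The higher members were ABCC3, AKR1B1, AKR1B10, AKR1C2, ALDH3A1, CBR1, CBR3, CYP4F11, FTL, GCLC, GCLM, GPX2, KEAP1, NQO1, OSGIN1, PGD, SLC7A11, SRXN1, TALDO1 and TKT. ALDH3A1, which oxidises aldehydes, was at 1197, 1481 and 1602 in A2780 OlaR and 890.5, 1013 and 1099 in C13* shCON, against 0.0269, 0.0706 and 0.184 in A2780 and 6.81, 10.2 and 12.7 in C13* shCEBPB. GPX2, a glutathione peroxidase of epithelia, was at 70.9, 77 and 81.3 and 39.7, 42.6 and 45.4, against 0, 0.218 and 0.7 and 0.0418, 0.0817 and 0.221. CYP4F11, a fatty acid hydroxylase, was at 21.1, 22.7 and 23.5 and 23.4, 23.9 and 24.1, against 0.426, 0.566 and 0.772 and 0, 0.0237 and 0.0805. ALDH3A1 and GPX2 stood higher in every A2780 OlaR library than in any of C13* shCON, and CYP4F11 overlapped. TXNRD1, thioredoxin reductase, was the lower member at 162, 170.4 and 178 and 172, 174 and 178, against 327, 344 and 366 and 208, 227 and 257. NFE2L2, which encodes NRF2, was not a member. Several aldo-keto reductases are near-identical copies, so the split of reads between AKR1B1, AKR1B10 and AKR1C2 and their relatives is uncertain.

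Among enzymes and transporters that handle drugs, 5 of 19 aldehyde dehydrogenases were higher members (26.3%), namely ALDH1A3, ALDH3A1, ALDH3A2, ALDH4A1 and ALDH16A1. ALDH1A3, which makes retinoic acid, was at 418, 428 and 443 in A2780 OlaR and 529, 533 and 548 in C13* shCON, against 9.5, 10.4 and 11.4 and 10.2, 11.4 and 12.5. ALDH3A2 was at 105, 113 and 124 and 118, 128 and 129, against 27, 28.1 and 30.4 and 22.1, 25.6 and 26.8. Of 23 genes of drug efflux and platinum transport, 16 were expressed and 4 were higher members (17.4%). These were ABCC3, ABCG2, GSTP1 and the metallothionein gene MT1F. The share was 16.9% among all expressed genes and 12.1% among all genes used. ABCG2, an efflux pump, was at 11.4, 12.3 and 14.4 and 8.13, 9.16 and 10.2, against 2.07, 2.3 and 2.67 and 0.752, 1.16 and 1.6. ABCC3, a pump for conjugated compounds, was at 46.9, 52.9 and 59 and 38, 40.9 and 43, against 0.644, 0.879 and 1.01 in A2780 and 10.7, 11.9 and 15.3 in C13* shCEBPB. MT1F was at 5.82, 7.52 and 8.26 and 10, 12.9 and 15.6, against 0, 0 and 0.287 and 0, 0 and 0.118. ABCB1, the gene of P-glycoprotein, was not a member.

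In the list of the EGFR family the members were ligands. Of 13 genes, 5 were higher members (38.5%, against 16.9% of all expressed genes) and none was lower: AREG, BTC, EREG, NRG1 and TGFA, which all encode ligands. NRG1, the ligand of ERBB3 and ERBB4, was at 24.2, 25.8 and 28.5 in A2780 OlaR and 29.9, 32.1 and 34.2 in C13* shCON, against 0.0779, 0.229 and 0.344 and 0.0334, 0.163 and 0.342. EREG was at 9.6, 12 and 14.9 and 13.3, 14.5 and 16, against 0, 0.0394 and 0.0835 and 0, 0.0406 and 0.0937. TGFA was at 11.4, 12.6 and 13.8 and 21.5, 22.2 and 23.2, against 1.64, 1.94 and 2.38 and 0.192, 0.435 and 0.916. The highest library of A2780 and C13* shCEBPB was at 0.344 FPKM for NRG1, 0.0937 for EREG and 2.38 for TGFA. The receptors EGFR, ERBB2, ERBB3 and ERBB4, the ligands EGF, HBEGF and NRG2 and the receptor inhibitor ERRFI1 were not members.

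Of 49 measured genes of homologous recombination and the Fanconi anaemia pathway, 17 were higher members (34.7%), 2 were lower (4.08%) and 30 were neither, where 16.9% of all expressed genes were higher and 13.8% lower members. The median difference was 0.40 in each line, small beside the epithelial lists. CDK12, a kinase needed for transcription of long repair genes, was at 25.5, 27.2 and 30.2 in A2780 OlaR and 25.8, 29.3 and 30 in C13* shCON, against 12.6, 13.2 and 15.3 and 13, 14.2 and 15.2. UIMC1, which recruits a BRCA1 complex to ubiquitin, was at 22.9, 23.9 and 25.8 and 24.9, 25.9 and 28.9, against 10.2, 10.7 and 12.4 and 10.6, 12.1 and 13.7. EME1, a subunit of a nuclease that cuts recombination intermediates, was at 25.7, 27.6 and 28.5 and 23.4, 24.7 and 26.7, against 4.4, 5.54 and 6.03 and 12.1, 14 and 15.4. In CDK12 and UIMC1 the 2 groups of each side overlapped, whereas EME1 was lower in A2780 than in C13* shCEBPB in every library. FANCF, a subunit of the Fanconi anaemia core complex, went the other way at 0.0175, 0.108 and 0.181 and 0.0265, 0.101 and 0.14, against 6.35, 7.92 and 8.32 and 3.37, 3.97 and 4.81. FAAP24, which binds FANCM, was the other lower member at 3.77, 4.26 and 5.25 and 3.23, 4.23 and 5.35, against 5.68, 6.07 and 7.58 and 6.22, 7.7 and 8.51. FANCM was itself a higher member.

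Of 15 PARP and PARG genes, 3 were higher members (20%, near the 16.9% of all expressed genes), namely PARP4, PARP10 and PARP11, all with a gap under 0.1, and none was lower. PARP11 was at 2.42, 2.79 and 3.76 and 2.6, 3.08 and 3.41, against 1.36, 1.82 and 2.24 in A2780, and was listed at 0 in every C13* shCEBPB library. PARP1 and PARP2, the enzymes that olaparib inhibits, were not members. Among 31 cell cycle genes, 10 were higher members (32.3%, against 16.9% of expressed genes) and 2 were lower (6.45%, against 13.8%). The other 19 were neither, and the median difference of the list was 1.45 in the A2780 line and 0.16 in the C13* line. CDKN1A, the gene of the cell cycle inhibitor p21, was at 103, 118 and 128 and 158, 168 and 181, against 12.5, 13.6 and 14.8 and 8.48, 13.2 and 18. CCND2, which encodes a D cyclin, was at 10.2, 10.6 and 11.5 in A2780 OlaR and 32.2, 33.4 and 36.7 in C13* shCON, against 0.63, 0.885 and 0.967 and 0, 0 and 0.0174. The inhibitor gene CDKN1B, which encodes p27, was at 13, 15.2 and 16.3 and 12.1, 13.9 and 15, against 40.1, 41.9 and 44.7 and 32.4, 37.8 and 41.4. So p21 and p27 mRNA were on opposite sides, and AURKA, CCNA2, MCM4, MCM6, MKI67, PCNA and TOP2A, which mark cycling cells, were higher members along with CCND1 and CCND2. Of 20 p53 targets, 7 were higher members (35%, against the same 16.9%) and TP53I3 was lower. GDF15, a stress-induced cytokine, was at 137, 161 and 180.3 and 124, 137 and 152, against 35.4, 39.9 and 45.7 in A2780 and 4.91, 6.96 and 9.37 in C13* shCEBPB. BTG2, which slows the cell cycle, was at 43.2, 45.9 and 51 and 55.4, 58.1 and 61.2, against 5.51, 5.93 and 6.71 and 3.75, 4.69 and 5.27.

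Interferon and antigen presentation genes held members of both directions. Of 34 measured, 12 were higher members (35.3%, against 16.9% of all expressed genes) and 4 were lower (11.8%, near the 13.8% of all expressed genes). HLA-F, an HLA class I gene, was at 29.4, 41 and 49.9 in A2780 OlaR and 39.9, 47.1 and 50.8 in C13* shCON, against 0.166, 0.209 and 0.529 and 0.119, 0.222 and 0.338. PSMB8, a subunit of the immunoproteasome, was at 62, 75.1 and 80.3 and 64.4, 66.7 and 75.5, against 0.207, 0.29 and 0.723 in A2780 and 11.9, 14 and 15.8 in C13* shCEBPB. Others were IFI44, IFIH1, IFIT2, IFIT3, IRF1, MX1, OAS2, PSMB9 and STAT2. The lower members were IFITM2, IFITM3, BST2, which encode antiviral membrane proteins, and NLRC5. IFITM2 was at 2.26, 3.24 and 3.75 and 1.28, 1.68 and 2.39, against 17.6, 18.5 and 20.7 in A2780 and 142, 147 and 162 in C13* shCEBPB. HLA class I genes are similar, and the assignment of reads to HLA-F is uncertain.

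The lists of bZIP factors held members of both directions. Of 14 C/EBP genes and dimer partners, TEF was a higher member (7.14%) and NFIL3 and ATF3 were lower (14.3%), and no C/EBP gene was a member. ATF3, a stress-induced repressor, was at 7.35, 7.71 and 9.1 in A2780 OlaR and 9.78, 11.1 and 11.6 in C13* shCON, against 52.5, 55.6 and 58.7 and 20.7, 25.3 and 28.6. Of 15 AP-1 genes, FOSL1 and JUN were higher members (13.3%) and BATF3, JUND and MAFK were lower (20%). FOSL1, which encodes FRA1, was at 187, 196 and 203 and 303, 306 and 320.0, against 7.48, 8.81 and 9.64 and 23.3, 25.7 and 27.8. JUND was at 25.9, 28.9 and 34.4 and 29.3, 37.8 and 39.9, against 78, 89.4 and 109.6 and 58.2, 94.9 and 111. Of all expressed genes, 16.9% were higher and 13.8% lower members, 30.7% in both directions together.

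Markers of other cell types were checked, beside shares of 16.9% higher and 13.8% lower members among all expressed genes. Many of these markers were not expressed, and the shares among all genes used were 12.1% and 9.54%. Of 19 ovarian and Müllerian markers, 4 were higher members (ESR1, PAX8, WFDC2 and WT1) and 3 were lower (FOLR1, FOXL2 and HOXA10). These shares, 21.1% and 15.8%, were nearer those of all expressed genes than those of all genes used, and 10 of the 19 were expressed. PAX8, the defining factor of Müllerian epithelium, was at 5.18, 5.94 and 6.93 in A2780 OlaR and 5.74, 6.2 and 6.4 in C13* shCON, against 0.306, 0.59 and 0.673 and 0.413, 0.529 and 0.672. Its level was thus under 1 FPKM in every A2780 and C13* shCEBPB library. PAX8 shares 1651 bp of its exons with the antisense gene PAX8-AS1. WFDC2, which encodes the ovarian cancer marker HE4, was at 37.3, 40.2 and 46.4 and 35.4, 40.2 and 42.9, against 0, 0 and 0.0524 and 0 in every library. FOLR1, the folate receptor, was at 0.346, 0.866 and 1.61 and 0.829, 1.26 and 1.66, against 10.8, 14 and 14.8 in A2780 and 837, 878 and 967 in C13* shCEBPB. Of 20 trophoblast and germ cell markers, 4 were lower members (20%), namely ALPL, ALPPL2, CGA and PSG4, and their summed list ran from 13.9 to 19.7 FPKM on the OlaR and shCON side, 53.8 to 60.4 in A2780 and 1229 to 1387 in C13* shCEBPB. Neural markers gave 2 higher members (NEFL, SOX2) and 2 lower (NES, TUBB3) of 18 (11.1% each), with a summed FPKM of 50.1 to 71.6 on the OlaR and shCON side, 584 to 596 in A2780 and 103 to 136 in C13* shCEBPB. Of 15 blood cell markers only CD68, a lysosomal gene of macrophages and other cells, was a member (higher), and 8 markers were listed at 0 in every library of A2780 OlaR and 8 in every library of C13* shCON. The summed FPKM of the blood list ran from 38.1 to 45.9 in A2780 OlaR, 62.9 to 70.4 in C13* shCON, 79.4 to 105 in A2780 and 11.6 to 15.5 in C13* shCEBPB. PTPRC, the gene of the leukocyte antigen CD45, which was picked after its values were seen, had a mean of 85.9 FPKM in A2780 and of 0.000789, 0 and 0.0018 in A2780 OlaR, C13* shCON and C13* shCEBPB. Of 11 oncofetal and stem cell genes, MDK was higher and IGF2BP1 and IGF2BP3 were lower. The part of other cells or lines in these values was not tested.

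Some gene families had shares of members away from those of all genes used (12.1% higher and 9.54% lower). Of 55 keratin genes, of which 17 were expressed, 18 were higher members (32.7%) and none was lower. Integrins and laminins had 14 higher and 4 lower members of 42, and collagens 4 higher and 9 lower of 44 (20.5% lower). Cytosolic ribosomal proteins had 19 higher members of 80 (23.8%) and 3 lower, with a median difference of 0.34 in the A2780 line and 0.15 in the C13* line, while mitochondrial ribosomal proteins had 12 higher and 6 lower of 78. Subunits of respiratory complex I had 6 lower members of 37 (16.2%) and 1 higher, and RAB GTPases, which direct vesicles, 10 lower of 61 (16.4%) and 4 higher. Solute carriers had 40 higher and 45 lower of 365 and ZNF genes 50 and 42 of 507, close to the shares of all genes used. Families with similar sequences, such as ribosomal proteins with their pseudogenes, may share reads.

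The rule does not fix whether the 2 groups of a side are alike, so they were compared with limma. A2780 OlaR and C13* shCON differed in 4876 of 11547 genes tested (42.2%) at an adjusted p under 0.05. Of 2065 higher members tested, 1059 differed (51.3%), 532 higher and 527 lower in A2780 OlaR, where 19.3% and 22.9% of all genes tested were called higher and lower, and of 1349 lower members tested, 577 differed (42.8%), 236 higher and 341 lower. These differences were small: 68 genes (0.589%) were called with a change of at least 2-fold, among them 33 higher and 4 lower members. The median size was 0.15 for higher and 0.12 for lower members, and 0.13 over all genes tested. A2780 and C13* shCEBPB differed in 10877 of 12234 genes (88.9%, with 51.5% higher and 37.4% lower in A2780), in 1259 of 1521 higher members (82.8%) and in 1466 of 1761 lower members (83.2%). Here the change was at least 2-fold in 4710 genes (38.5%), in 390 higher members (25.6%) and in 461 lower members (26.2%). The median over all genes was 0.18 on the log2 scale, and 0.02 after scaling by median ratios, so directions are relative to this shift. Of the called higher members, 49.2% were higher in A2780 than in C13* shCEBPB, and 37.5% after that scaling. Of the called lower members these shares were 57.2% and 45.3%. A gene with widely separate groups on a side can be a member only if the sides stand further apart still, so the rule itself limits these differences, and nothing is read from the lower shares of members.

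Members that differed most within the OlaR and shCON side were chosen by the size of the change. VIM was 3.22 lower in A2780 OlaR on the log2 scale (SE 0.05, limma adjusted p = 2.59e-18). SERPINB2, a protease inhibitor of keratinocytes, was at 1.87, 2.78 and 3.64 in A2780 OlaR and 22.4, 23.4 and 27.7 in C13* shCON (log2 difference -2.77, SE 0.08, adjusted p = 2.35e-14). NT5E, the ectonucleotidase CD73, was at 3.81, 4.23 and 6.1 and 14.9, 15.5 and 18.2 (-1.60, SE 0.08, adjusted p = 5.15e-11), and the hair keratin-associated gene KRTAP2-3 was lower as well (-1.99, SE 0.07, adjusted p = 1.93e-13). Higher in A2780 OlaR were KRT4, a keratin of mucosa, at 24.6, 26.5 and 27 against 4.95, 5.2 and 5.79 (2.12, SE 0.04, adjusted p = 3.55e-17), FAM131B (2.24), the reductase gene AKR1C2 (1.73) and WNT10A, a ligand of epithelial development (1.47), the last 3 with adjusted p of at most 3.9e-11. In all 8 genes the libraries of A2780 OlaR and C13* shCON did not overlap.

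On the other side, ALPL, a phosphatase gene, was at 0.933, 1.35 and 1.46 in A2780 and 421, 579 and 635 in C13* shCEBPB (log2 difference -7.89, SE 0.09, limma adjusted p = 1.31e-23). CGA, the common subunit of gonadotropins, was at 0.0682, 0.185 and 0.407 and 387, 558 and 734, OLFM1, a secreted glycoprotein, at 0.849, 1.06 and 1.3 and 143, 170.4 and 219.7, and KRT17 at 0.103, 0.2 and 0.262 and 135, 262 and 353. ALPL and CGA were listed at 0 in every A2780 OlaR and C13* shCON library, so that these lower members were high in C13* shCEBPB alone. The opposite held for SLC2A3, a glucose transporter, which was at 253, 264 and 282 in A2780 and 0.618, 1.2 and 2.12 in C13* shCEBPB (6.89, SE 0.12, adjusted p = 1.96e-20), and for BARX1, a homeobox gene, at 34.9, 41.3 and 46.2 and 0.383, 0.528 and 0.954. Such differences were also seen in higher members: UBE2L6, which conjugates ISG15, was at 32.8, 39 and 40.9 in A2780 and listed at 0 in every C13* shCEBPB library, and CTSH, a cathepsin, was at 26.8, 28.5 and 29.8 and 0.028, 0.0768 and 0.192.

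The size of the change was compared between the lines with an interaction term, A2780 OlaR minus A2780 against C13* shCON minus C13* shCEBPB. It passed the threshold in 11020 of 12967 genes tested (85%, with 35.4% higher and 49.6% lower in the A2780 line), in 1636 of 2065 higher members (79.2%) and in 1420 of 1768 lower members (80.3%). The difference was at least 2-fold in 443 higher (21.5%) and 491 lower members (27.8%), and in 4912 genes in all (37.9%). Of the called higher members, 817 had the larger value in the A2780 line and 819 in the C13* line. That balance moved with the scaling, from 49.9% with the larger value in the A2780 line to 61.7% after quantile normalization. Of the called lower members, 41.2% had the higher signed value, which is the smaller fall, in the A2780 line, and 53.3% after scaling by median ratios. The shares of members called were below that of all genes tested, and the rule used the same values, so nothing about the members is read from them. The most alike members, by the rule of a gap of at least 3 and the smallest differences within the sides, included SERPINB1, WFDC2, HOOK1, MARVELD3 and KDF1. For SERPINB1 the difference between the lines was -0.02 (SE 0.06, adjusted p = 0.719, limma), and for HOOK1, which links vesicles to microtubules, it was -0.0042 (SE 0.08, adjusted p = 0.962, limma). HOOK1 was at 10.6, 11.7 and 15.1 in A2780 OlaR and 11.7, 12.5 and 14.1 in C13* shCON, was listed at 0 in every A2780 library and reached 0.00822 in C13* shCEBPB. MARVELD3, a tight junction gene, was at 12.8, 16.9 and 18.4 and 13.3, 16 and 18.2, against 0.0305, 0.1 and 0.253 and 0.0389, 0.14 and 0.206. An adjusted p above the threshold does not show that the lines were equal in these 5 genes, which were chosen for their likeness.

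Members were not evenly spread over the chromosomes. Of 11241 expressed genes placed by symbol in GENCODE 44 on hg38, 17% were higher and 13.9% lower members. On chromosome 20, 117 of 312 expressed genes were higher members (37.5%) and 17 were lower (5.45%). Chromosomes 13 (56 of 193, 29%) and 18 (41 of 159, 25.8%) came next for higher members. Lower members were most frequent on chromosomes 7 (122 of 513, 23.8%), 10 (101 of 441, 22.9%), X (74 of 333, 22.2%) and 12 (124 of 610, 20.3%). The median difference over all expressed genes of chromosome 20 was 0.61 in the A2780 line and 0.48 in the C13* line. It was 0.60 and 0.39 on chromosome 13, -0.18 and -0.26 on chromosome 7, and -0.20 and -0.29 on X. Copy number was not measured, and its part in these shares was not tested.

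Members of 1 direction also stood next to each other among the expressed genes of a chromosome. The longest run of lower members held 9 genes on chromosome 17 from 1420689 to 1738599 (CRK, MYO1C, INPP5K, PITPNA, SLC43A2, RILP, PRPF8, TLCD2 and WDR81). Runs of higher members held gene clusters that encode related proteins. They were KRT13, KRT15, KRT19, KRT14, KRT16 and KRT17 on chromosome 17 (41500981 to 41624842), SERPINB5, SERPINB13, SERPINB3, SERPINB7, SERPINB2, HMSD and SERPINB8 on chromosome 18 (63476958 to 64019779), and KLK5, KLK6, KLK8, KLK10 and KLK11, which encode kallikrein proteases of skin, on chromosome 19 (50943303 to 51028039). A run of 8 on chromosome 2 (112645939 to 113278921) held SLC20A1, CKAP2L, IL1A, IL1B, IL36RN, IL1RN, PSD4 and PAX8. Among lower members, HOXA10, HOXA11 and HOXA13 stood in a run of 6 on chromosome 7 (27170605 to 28180795), and VIM and ZEB1 each stood in a run of 5 on chromosome 10.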

How the data were processed

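mRNA of 31 libraries (A2780, 8; A2780 OlaR, 8; C13* shCON, 7; C13* shCEBPB, 8) was analysed, grouped by the titles of the samples. Per the paper and the submitters' processing notes, 150-bp paired-end reads were checked with FastQC, mapped to hg38 with TopHat, counted per gene with HTSeq and tested with edgeR. The values the authors deposited are FPKM, 1 table for all libraries, and every column was used. The tool and gene annotation behind the FPKM, and whether counting used the strand, are not given in the sources used here. The table has 19225 entries, 4 of which carry repeated symbols and were dropped, and 23 symbols that had turned into dates were kept unnamed. FPKM give no counts. Steps of low values placed relative depth between 0.865 and 1.21 (of 5076 low values, 82.3% were no more than 0.1 from a whole step), too few for a count test.

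A gene was a member if all 15 libraries of A2780 OlaR and C13* shCON lay above, or all below, the other 16, with no filter or test. The members and gene lists were chosen with earlier results of these data known. Genes are named by fixed rules: the targeted gene, genes the study names, the 10 widest gaps in each direction, up to 3 members each way per list, those nearest the boundary, the 4 largest differences each way within sides and between lines, and the 6 most alike. All other members of a list that are named are given without values. Some genes that these rules or lists hold are not reported here. Comparisons used limma 3.58.1 in R 4.3.3 on log2(FPKM + 1), with lmFit and a trended eBayes. Tests were two-sided, and p-values were adjusted by the method of Benjamini and Hochberg over all genes tested, with a threshold of 0.05. Each within-side fit used its own 2 groups and the difference between lines all 4, over genes that reached 1 FPKM in a number of libraries equal to the smallest group. The fits were tested on simulated data. The added 1 makes changes of low genes look smaller than they are. Positions, exons and promoter windows come from GENCODE 44 on hg38 by symbol (94.8% of genes matched), and printed promoters from RefSeq (GRCh38.p14). Alternatives were other scalings, filters, a pseudocount of 0.1, library ranges, a replicate block, 1 fit of all groups and a larger gap or fold. Python 3.11.15, numpy 2.4.6, pandas 2.3.3 and matplotlib 3.10.9 were used.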

Additional observations from a re-analysis of the deposited data

Results flagged for a closer look

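Among 23 genes given by library for the widest gaps, CEBPB and the genes the study names, 90 sets of libraries of 1 group with a spread were checked. A single library far from the others was found in 6. With normal values, chance gives about 1 in 20 sets. That rate does not hold for sets near 0, such as those below with all other libraries at 0. All 6 were the highest library of a group on the low side of a member. They were ZBTB7C in A2780 replicate 1 (0.0112 FPKM, the others at 0), SYT8 in C13* shCEBPB replicate 5 (0.0165, the others at 0), MAL2 in C13* shCEBPB replicate 7 (0.328, next 0.145), ECI2 in A2780 OlaR replicate 1 (0.910, next 0.535), UCP2 in A2780 OlaR replicate 5 (3.78, next 3.01) and SAMD11 in A2780 OlaR replicate 6 (0.0386, next 0.00976). The 15 libraries on 1 side and 16 on the other remained separated in each.

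The change in the A2780 line minus that in the C13* line passed the limma threshold in 8 named members chosen for the size of this difference. On the log2(FPKM + 1) scale it was 8.85 for CGA, 7.89 for ALPL, 7.19 for KRT17 and 6.39 for OLFM1, and -7.20 for SLC2A3, -5.19 for UBE2L6, -4.86 for BARX1 and -4.80 for NMU. CGA and ALPL were listed at 0 on the OlaR and shCON side, and UBE2L6 in C13* shCEBPB, so these values depend on the pseudocount and are no folds.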

How the results depend on the processing

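Requiring a gap of at least 1 left 534 higher and 326 lower members and 1 gene separated by the labelled line. The last count moved from 294 to 677 when 1 library on each side could be left out, to 1356 with libraries 1 to 3 and to 656 with libraries 4 to 8, where fewer libraries have to be separated. Other scalings, the expressed filter and leaving out C13* shCON replicate 1 kept the counts of members within 1.5 times. Of the members, 92.4% of higher and 97.8% of lower were kept after scaling to a common sum, and 92.6% and 90.5% after quantile normalization. Requiring a fold change of at least 2 moved the calls to 68 between A2780 OlaR and C13* shCON (33 higher and 4 lower members), to 4710 between A2780 and C13* shCEBPB (390 and 461) and to 4912 for the difference between the lines (443 and 491). Scaling by median ratios or quantiles changed the balance of directions in calls of members by over 10 percentage points, to 37.5% and 36.6% higher in A2780 than in C13* shCEBPB among higher members (49.2% as deposited), and to 59.2% and 61.7% with the larger value in the A2780 line (49.9% as deposited). With the replicate number as a block, 3436, 10655 and 10973 genes were called, against 4876, 10877 and 11020 without it. Libraries of the same replicate number did not deviate together. Their mean r was -0.264 between A2780 OlaR and C13* shCON and -0.263 between A2780 and C13* shCEBPB, against 0.039 and 0.044 for other pairs. C13* shCON replicates 6 and 7 are libraries 7 and 8, and pairing of that group by library number was not tested. The difference between the sides of named members was recomputed only under the other scalings, where none changed direction. Since their sides do not overlap, this outcome was nearly fixed in advance. Members named for a large difference within a side or between the lines kept its sign in the alternatives that tested them. FPKM leave the counting error of low genes unknown.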

Other observations

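Of the 6880 genes that were separated in both lines (35.8% of the genes used), 2172 (11.3%) went in opposite directions. A2780 OlaR lay wholly above A2780 while C13* shCON lay wholly below C13* shCEBPB in 794 genes (4.13%), and the reverse held in 1378 (7.17%). By the labelled line, 153 genes were higher and 141 lower in every A2780 library, with or without selection, than in every C13* library. Members did not stand out in gene structure. The median summed exon length was 5234 bp for expressed higher members, 5402 bp for expressed lower members and 5415 bp for expressed genes, with 12, 11 and 11 merged exons. In promoter windows, the letters TATAAA stood in 9.09% of higher and 7.35% of lower members with a gap of at least 1, in 4.61% of expressed genes and in 9.53% of all promoters, so members were not above the last share. The GC box letters GGGCGG stood in 71.2%, 78.9%, 76.5% and 62.2% in the same order.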
